A study of Sus scrofa with 3 samples.

Results

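The miRNAs described here are those of the distal cluster of the DLK1-DIO3 locus, from miR-379 to miR-656, in small RNA libraries of pig liver. They were found by name: of 45 names taken to belong to the cluster, 35 had a row in the tables, with 58 mature arms in 172 rows, out of 677 named miRNAs with 977 arms in 3456 rows. The rule uses names only and applies no minimum level. The 10 names without a row (miR-134, miR-154, miR-154a, miR-329a, miR-376e, miR-453, miR-544a, miR-654, miR-889 and miR-1185) were not analysed here.

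The livers came from male pigs of the Jinhua breed at embryonic day 90 (E90), at postnatal day 30 (P30d, labelled as weaning) and at postnatal year 7 (P7y, labelled as adult), with no other treatment or genotype named. The labels name 3 pigs per stage but there is 1 library per stage, and whether RNA was pooled is not stated. Each comparison therefore sets 1 library against another, and no spread between animals could be measured. Levels are counts per 1000000 reads of named miRNAs (CPM), over totals of 9243601, 3622993 and 9920207 reads in the order of age. A count of 0 allows up to 3 reads, which is 0.325, 0.828 and 0.302 CPM in that order. All intervals are 95% intervals of counting error only, and PCR reads without molecular identifiers are not independent molecules.

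DLK1-DIO3 is an imprinted locus: protein-coding genes such as DLK1 are expressed from the paternal chromosome, and long noncoding RNAs from the maternal one. The distal miRNA hairpins lie in such a maternal noncoding transcript, and each hairpin is cut into a 5p and a 3p arm, of which 1 usually predominates. A miRNA finds its targets mainly through its seed, bases 2 to 8 from the 5′ end, so arms with the same seed are expected to share targets. The cluster is best known from brain, placenta and embryonic tissues, and in mice its loss disturbs the metabolic switch of the newborn liver.

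The arms on which the results turn are shown by the read with the most copies at E90, 5′ to 3′ in DNA letters, with the seed in capitals. The first 15 are the arms with the highest mean level, ordered by that mean.
miR-409-5p: aGGTTACCcgagcaactttgcat
miR-381-3p: tATACAAGgacaagctctctgt
miR-758-3p: tTTGTGACctggtccactaac
miR-379-5p: tGGTAGACtgtggaacgtagg
miR-494-3p: tGAAACATacacgggaaacctct
miR-380-3p: tATGTAATatggtccacgtct
miR-409-3p: gAATGTTGctcggtgaacccct
miR-299-3p: tATGTGGGacggtaaaccgctt
miR-382-5p: gAAGTTGTtcgtggtggattcg
miR-656-3p: aATATTATacagtcaacctct
miR-379-3p: tATGTAACacggtccactaac
miR-487b-3p: aATCGTACagggtcatccactt
miR-412-5p: tGGTCGACcagttggaaagtaat
miR-382-3p: aATCATTCacggacaacacttt
miR-323b-3p: cCCAATACacggtcgatctct
These 15 arms carried 15 different seeds.

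Over all 58 arms the reads held 54 seeds, so the cluster is not 1 seed family. Only 3 seeds occurred in more than 1 arm, and together they covered 7 arms. The arms of the miR-376 group are shown because miR-376b-3p and miR-376c-3p, unlike most of the cluster, were not lower at P30d than at E90. miR-376c-3p has a seed of its own, and the others share theirs.
miR-376a-3p: aTCATAGAggaaaatccacgt
miR-376b-3p: aTCATAGAggaaaatccatgtt
miR-376d-3p: aTCATAGAggaaaatccacat
miR-376c-3p: aACATAGAggaaattccacgt
The seed ATGTAAC was shared by miR-379-3p and miR-411-3p, which were listed with the same read, so their reads are divided between the names and cannot be told apart.
miR-411-3p: tATGTAACacggtccactaac
The seed TCATACA was found in the main reads of miR-485-3p and miR-539-3p.
miR-485-3p: gTCATACAcggctctcctctct
miR-539-3p: aTCATACAaggacaatttcttt

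The cluster was a small part of the liver's miRNA reads, and a smaller one at each later stage. Its arms summed to 29688 reads at E90, or 3212 CPM (interval 3175 to 3248), which is 0.321% of named reads. The P30d library held 1774 reads of the cluster, or 490 CPM (467.1 to 513.0). The P7y library held 1355, or 137 CPM (129.4 to 144.1). E90 was the highest of the 3 libraries and P7y the lowest, and the counting intervals did not overlap. The sum was 6.56-fold lower at P30d than at E90 (6.25 to 6.88), 3.58-fold lower at P7y than at P30d (3.34 to 3.85) and 23.5-fold lower at P7y than at E90 (22.3 to 24.8).

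Those ratios correspond to log2 values of -2.71, -1.84 and -4.56, against medians of -0.11, -1.34 and -1.11 over all arms with a mean of 10 CPM or more. The difference between P30d and P7y was thus nearer to that of the typical miRNA than the differences from E90 were. With library scaling by TMM, the all-arm medians moved to -0.27, -0.25 and -0.17, and the cluster's log2 ratio of P7y over P30d to -0.75, under the 2-fold size used here. Under the same scaling the ratio to E90 stayed past that size for both later libraries. From rows of known pig hairpins only, the sum was 363, 184 and 42.4 CPM and its log2 ratio of P30d over E90 was -0.98. That sum was close to miR-381 alone, which had 351, 169 and 42.4 CPM over both arms and a ratio of -1.06. It therefore says little about the other members.

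Reads from other cell types were measured through marker lists, since a change in the mix of cells and a change within cells cannot be told apart in whole liver. The 4 hepatocyte miRNAs (miR-122, miR-192, miR-194 and miR-148a) made up 31.4%, 36.7% and 28.9% of reads at E90, P30d and P7y, so markers of hepatocytes were abundant in each library. Its members differed: miR-122-5p had 128017, 213802 and 37870 CPM, miR-192-5p 109466, 109311 and 154836, and miR-148a-3p 75920, 41821 and 95666. Of the list's 8 arms, 5 were at least 2-fold lower, beyond counting error, at P7y than at P30d and 1 higher, against 55.8% and 12.5% of all arms. The erythroid list (miR-451, miR-144 and miR-486) moved in the direction of the cluster, with 0.724%, 0.303% and 0.182% of reads, a smaller difference than that of the cluster. In its 5 arms with a mean of 10 CPM or more, 3 were at least 2-fold lower, beyond counting error, at P30d than at E90. At P7y 5 were lower than at E90, against 34.9% and 51.1% of all arms at that level in the 2 pairs. Its members differed at P30d: miR-144-3p had 978 CPM at E90 and 1195 at P30d, and miR-486-5p 15.1 and 17.7. The other arm of miR-144, miR-144-5p, had 1168 and 54.7 CPM. The mesenchymal list (miR-199a, miR-199b, miR-214, miR-143 and miR-145) took 6.01%, 6.79% and 11.5%. Its highest value, at P7y, came with miR-143-3p at 102623 CPM against 17730 at P30d. Yet 5 of its 10 arms were lower at P7y than at P30d and 2 higher, against 55.8% and 12.5% of all arms. Between E90 and P30d, 6 of the 10 were higher at P30d and 1 lower, against 32.7% and 34.9% of all arms. In that pair miR-143-3p was lower, from 51123 CPM at E90. miR-199a-5p had 3349, 40212 and 2539 CPM from E90 to P7y. The neural list, with 3 of 4 names found, stood at 0.0135%, 0.0189% and 0.00453%, and the striated muscle list at 0.0174%, 0.0383% and 0.00830%. Of the neural markers, miR-128-3p had 93.1, 157 and 12.9 CPM and miR-218-5p 29.1, 23.6 and 15.2, while miR-9-5p was highest at P7y, with 5.19, 4.69 and 14.5. Of the muscle markers, miR-206 had 1 read at E90 and 0 later, while miR-133a-3p had 14.7, 41.2 and 27.1 CPM, miR-499-5p 155, 319 and 51.5 CPM and miR-1-3p 3, 3 and 31 reads. The part of any of these cell types in the cluster's levels was not tested.

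Fewer members were read at each later stage, as were fewer arms of the whole tables. At E90, 33 of the 35 members and 55 of the 58 arms had reads. By P30d these numbers were 31 and 46, and by P7y 19 and 25. The number of arms at 10 CPM or more went from 23 to 10 to 6. Over all named miRNAs, 780, 735 and 565 arms had reads, and 329, 319 and 249 reached 10 CPM. The P7y table holds few low rows although it is the deepest: 11.4% of its rows had a main read of 2 copies or fewer, against 27.7% at E90 and 41.4% at P30d. The part of that difference in the members listed at 0 at P7y was not tested.

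A few arms made up most of the sum, and the leading arm differed between libraries. The 5 most abundant arms held 69.4% of it at E90, 67.4% at P30d and 72.6% at P7y. At E90 the leader was miR-409-5p, with 31.8% of the cluster's reads (31.3 to 32.3), against 8.57% at P30d (7.31 to 9.97) and 14.8% at P7y (12.9 to 16.8). At P30d and P7y the leader by the member rule was miR-381-3p, with 34.3% (32.1 to 36.6) and 30.7% (28.3 to 33.2), against 10.9% at E90 (10.5 to 11.3). miR-380-3p had its highest share at P30d: it held 4.48%, 14.9% and 8.71% in the order of age. These shares within the cluster do not depend on how libraries are scaled, and the interval of miR-409-5p overlapped in no pair of libraries.

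**Figure D1:**
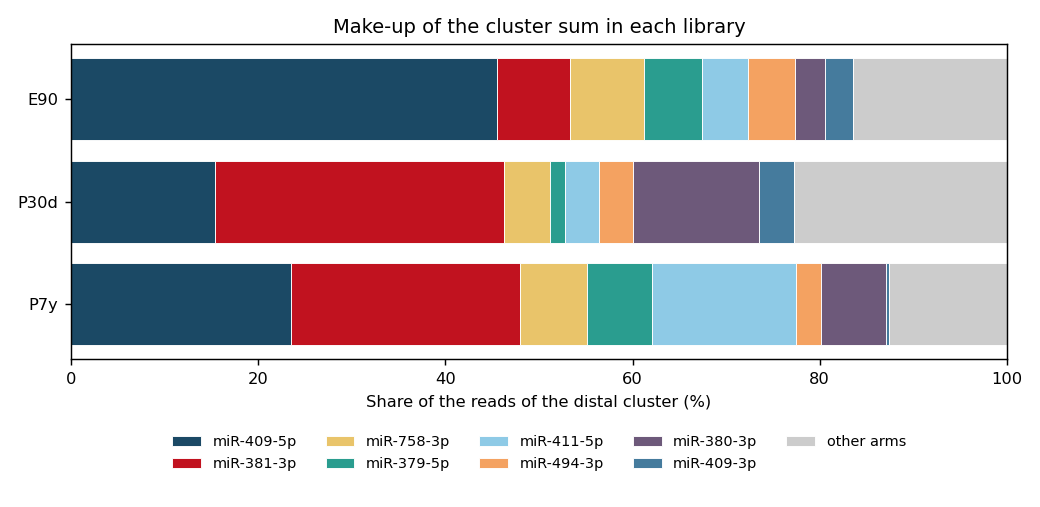
Share of the cluster's reads (x axis, %) held by 8 leading arms and by all other arms (colours), 1 bar per library, with the rows named miR-409a, miR-411a and miR-411b counted under miR-409 and miR-411. miR-409-5p takes 45.5% of the E90 bar and miR-381-3p 30.9% of the P30d bar.

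The naming of 2 members bears on these values. The tables list the reads of miR-409-5p under miR-409 and under miR-409a of another species, with 9437.5 and 9407.5 reads at E90, 152 each at P30d and 200 each at P7y, and the member rule counts only the first. Of miR-411, the E90 table lists reads only as miR-411a or miR-411b, so that the rule gives 0 CPM at E90 and 10.1 and 12.8 CPM later. Counting these 12 rows under miR-409 and miR-411, an alternative chosen after the data were seen, raised the cluster to 4479, 544 and 171 CPM. miR-409-5p then held 45.5%, 15.4% and 23.5% of the sum. At P7y it could not be told apart from miR-381-3p, since their intervals were 21.5 to 25.6 and 22.4 to 26.6. The log2 ratios of the sum were then -3.04 for P30d over E90, -1.67 for P7y over P30d and -4.71 for P7y over E90.

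Between E90 and P30d, nearly every well-measured arm of the cluster was lower. An arm was called where its ratio was 2-fold or more and the counting interval excluded no change. Of 17 member arms with a mean of 10 CPM or more, 16 were lower at P30d and 0 higher, where 34.9% of all 321 arms at that level were lower and 32.7% higher. Their median log2 ratio was -3.50 (quartiles -4.03 and -2.71), against -0.11 for all arms. Without a minimum level, 32 of 57 arms were lower and 3 higher, against 21.4% and 19.3% of all 910 arms. Of those 3, miR-411-5p and miR-411-3p rest on the naming described above, and the other is miR-376b-3p. Of the 17 arms, 9 reached 10 CPM at E90 alone, so that they passed the filter through the library in which they were high. The counts over the 17 are therefore a description.

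**Figure D2:**
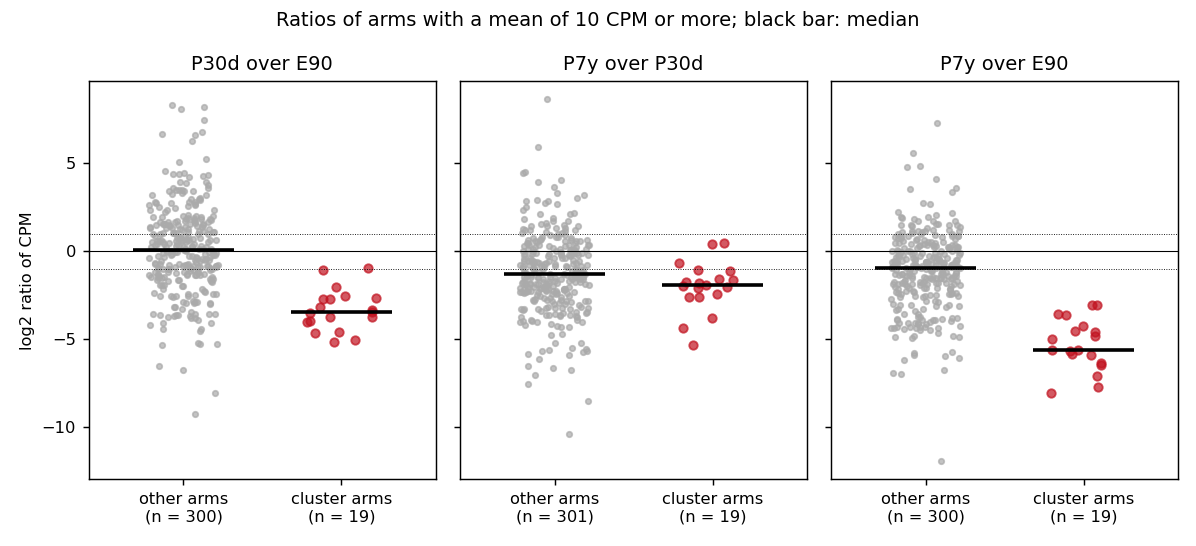
log2 ratio of CPM (y axis) for each pair of libraries, for the 19 cluster arms with a mean of 10 CPM or more after joining names (red) and for all other arms at that level (grey), with black bars at the medians and dotted lines at 2-fold. A 0 is set to 3 reads, so those points are bounds, and the red medians lie at -3.45, -1.90 and -5.60.

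The members highest at E90 showed the size of this difference. miR-409-5p had 1021, 42.0 and 20.2 CPM from the first stage to the last, and was 24.3-fold lower at P30d (log2 -4.61, -4.85 to -4.37). miR-758-3p, known to target the cholesterol exporter ABCA1, had 354, 26.5 and 12.3 CPM and was 13.3-fold lower at P30d. miR-379-5p, which responds to glucocorticoids in mouse liver, had 278, 8.56 and 11.8 CPM and was 32.5-fold lower at P30d. In these 3 arms E90 stood far above the later libraries, whose log2 ratios, P7y over P30d, were -1.06, -1.11 and 0.46.

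miR-494-3p had 226, 19.9 and 4.64 CPM. miR-409-3p, which targets fibrinogen mRNA in hepatocyte lines, had 134, 20.4 and 0.504 CPM. miR-299-3p had 83.2, 14.4 and 4.33 CPM, and miR-656-3p, the last member of the cluster, 74.5, 5.52 and 0.907 CPM. These arms stepped down from each stage to the next, and each step was called in CPM. With TMM scaling, the step of miR-299-3p from P30d to P7y was not called. miR-382-5p had 80.6, 2.21 and 1.41 CPM, so that almost all of its difference lay between E90 and P30d, where it was 36.5-fold lower (log2 -5.19, -6.41 to -4.20). miR-379-3p with 67.5, 4.0 and 1.14 CPM, miR-323b-3p with 32.2, 3.59 and 1.01 and miR-329b-3p with 29.5, 4.69 and 1.21 were called lower at each step in CPM. With TMM none of them was called from P30d to P7y. From its representative read alone, miR-329b-3p was at 0.63 for P7y over P30d. The values of miR-379-3p depend on how its reads were divided with miR-411-3p, which differed between libraries. The other arm of miR-382, miR-382-3p, had 34.3, 2.21 and 0.706 CPM.

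miR-487b-3p, miR-412-5p and miR-323-3p were read at E90 and P30d and listed at 0 at P7y. miR-487b-3p had 587, 23 and 0 reads in the 3 libraries, in CPM 63.5, 6.35 and 0. miR-412-5p had 378, 6 and 0 reads, and miR-323-3p 251, 15 and 0. Against the limit of 3 reads at P7y they were at least 210, 135 and 89.8-fold lower there than at E90. These bounds hold only if a 0 at P7y stands for 3 reads or fewer. Few low rows were listed at P7y, so this could not be checked.

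**Figure D3:**
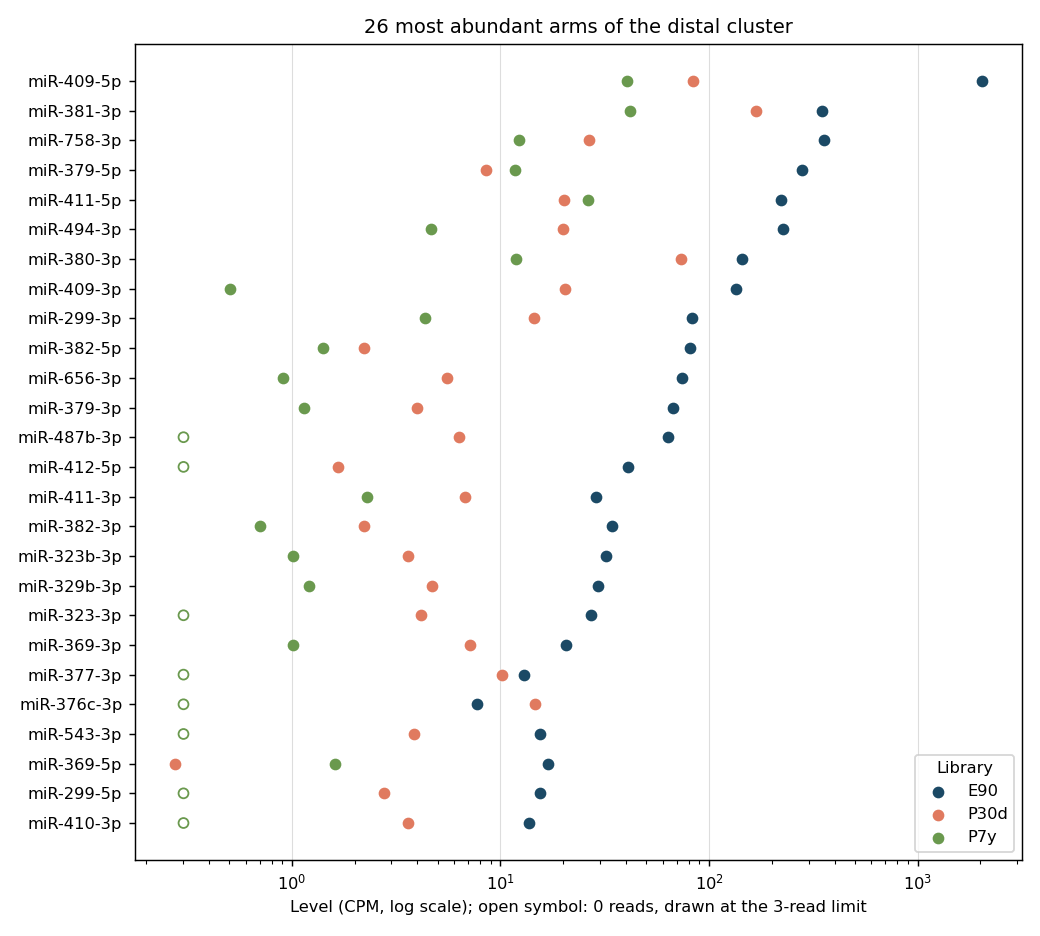
CPM (x axis, log scale) of the 26 arms of the cluster with the highest means, after joining names, in the 3 libraries (colours). Open symbols mark 0 reads, drawn at the 3-read limit; miR-376c-3p is the arm here whose P30d symbol lies to the right of its E90 symbol.

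miR-381-3p and miR-380-3p differed least between E90 and P30d among the abundant arms. miR-381-3p had 350, 168 and 41.9 CPM. It was 2.08-fold lower at P30d (log2 -1.06, -1.18 to -0.93) and 4.01-fold lower at P7y than at P30d. miR-380-3p had 144, 73.1 and 11.9 CPM; its log2 ratio of P30d over E90 was -0.98 (-1.17 to -0.78), so it was the 1 arm of 17 not called in that pair. It was then 6.15-fold lower at P7y than at P30d. Both arms thus lay nearer to E90 at P30d, where miR-409-5p and miR-379-5p already lay near their P7y level. With DESeq2 size factors the first ratio of miR-381-3p was -0.99 and with TMM that of miR-380-3p was -1.13, so both lie at the edge of the size rule. From its representative read alone, miR-381-3p was at -0.49.

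A few arms were as high or higher at P30d. miR-376c-3p had 71, 53 and 0 reads from E90 to P7y, which is 7.68, 14.6 and 0 CPM. Its log2 ratio of P30d over E90 was 0.93 (0.39 to 1.46), below the size for a call although the interval lay above 0. miR-376b-3p had 5, 12 and 0 reads, a log2 ratio of 2.61 (1.01 to 4.47), and was called higher on these few reads. miR-376d-3p, with the same seed as miR-376b-3p, went the other way, with 49, 3 and 0 reads (log2 -2.68, -5.00 to -1.05). miR-495-3p had 6.92, 8.0 and 0.504 CPM and miR-377-3p 119, 37 and 0 reads, and neither was called between E90 and P30d. Over the 37 member arms with at least 20 reads at E90, the log2 ratio of P30d over E90 ran from -5.93 (miR-369-5p, 156 reads at E90 and 1 at P30d) to 0.93 (miR-376c-3p), with a median of -2.54. These arms were chosen in the library where the cluster is high, so the median is a description. Without a minimum level the median was -1.82, with 11 arms entered at the 3-read limit.

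Between P30d and P7y, the cluster followed the general shift more closely. Of the 17 arms, 14 were lower at P7y and 0 higher, where 55.8% of all 321 arms were lower and 12.5% higher, and the cluster's median log2 ratio was -1.96 against -1.34. With TMM scaling, 7 were lower and 1 higher, against 34.0% and 27.1% of all arms. DESeq2 size factors gave the same counts, against 34.6% and 27.1%. Without a minimum level, 27 of 48 arms were lower and 1, miR-300-3p, higher, against 38.2% and 7.87% of all 801 arms. Among the arms no longer called with TMM in this pair were miR-381-3p (-0.91), miR-299-3p (-0.64), miR-379-3p (-0.81), miR-323b-3p (-0.74) and miR-329b-3p (-0.86). The calls here therefore depend on scaling, and the share of lower arms under TMM was close to that of all arms.

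Relative to the all-arm median of -1.34, the members spread to both sides. The relative log2 ratio, which is the ratio minus that median, was -4.0 for miR-409-3p, with 74 reads at P30d and 5 at P7y. With 0 set to 3 reads, it was at most -3.05 for miR-487b-3p, and at most -3.74 and -4.25 for miR-377-3p and miR-376c-3p. All of these had 0 reads at P7y, where few low rows were listed. It was 1.81 for miR-379-5p, with 31 and 117 reads, and 1.73 for miR-411-5p after joining names, with 73 and 262 reads. miR-379-5p was not called in CPM (log2 0.46, -0.12 to 1.08), and was the 1 arm called higher with TMM (1.56, 0.97 to 2.18). The leading arm miR-409-5p, at -1.06 in CPM, was at 0.03 with TMM. miR-758-3p was at -1.11 in CPM and at 0.21 when reads with a mismatch were left out, so no direction is given for either arm. The same holds for miR-329b-3p, at -1.96 from all reads and 0.63 from its representative read.

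Across the whole span from E90 to P7y, all 17 arms were lower at P7y, where 51.1% of all 321 arms were lower and 11.8% higher. Their median log2 ratio was -5.60 against -1.11 over all arms, with 3 of the 17 entered at the 3-read limit. All 17 remained called with TMM, where 34.3% of all arms were lower. Without a minimum level 44 of 58 arms were lower and 2 higher, against 40.3% and 10.5% of all 841 arms, and the 2 higher were the arms of miR-411, which rest on the naming. The 37 arms with at least 20 reads at E90 were chosen in the library where the cluster is high. Among them the log2 ratio ran from -8.05 for miR-409-3p to -0.91 for miR-300-3p. Of these arms 16 had 0 reads at P7y and are bounds, so some, such as miR-487b-3p at -7.71 or less, may lie below miR-409-3p. After joining names, miR-411-5p had 2042, 73 and 262 reads from E90 to P7y, and its log2 ratio to E90 was -3.45 at P30d and -3.06 at P7y.

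The balance of arms was lopsided in most members. Of 24 members with at least 50 reads at E90, names joined, 18 had mostly 3p and 6 mostly 5p reads, and 16 had over 90% of reads in 1 arm. miR-494, miR-323b and miR-329b had no 5p read at E90, with 2085 3p reads for miR-494, which allows a 5p share of up to 0.177%. miR-323 was listed with 251 3p reads and miR-323a with 7 5p reads. The names were kept apart here, so miR-323 counts above as wholly 3p, and no balance of both names together is given. miR-412, miR-409, miR-411, miR-379, miR-382 and miR-485 were the 6 with mostly 5p reads. At E90 miR-369 was the most even, with 156 5p and 190 3p reads, or 45.1% 5p (39.8 to 50.5). On 27 reads at P30d its 5p share was 3.70% (0.0937 to 19.0), an interval that did not overlap that at E90. At P7y it was 61.5% (40.6 to 79.8), on 26 reads.

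Among members with at least 50 reads in each library, miR-409 showed the clearest difference of arms between libraries. Its 5p and 3p reads, names joined, numbered 18845 and 1236 at E90, 304 and 74 at P30d, and 400 and 5 at P7y. The 5p share was 93.8% at E90 (93.5 to 94.2). It was lower at P30d, with 80.4% (76.1 to 84.3), and higher at P7y, with 98.8% (97.1 to 99.6), and the counting intervals did not overlap. miR-411 had the same order: 88.5% (87.1 to 89.8) at E90, then 74.9% (64.7 to 82.8) and 92.0% (88.1 to 94.8), with E90 and P7y overlapping. miR-379 had 80.4% at E90 and 91.2% at P7y (85.1 to 95.6), and 68.1% at P30d (52.0 to 80.5) on 46 reads. The interval of miR-379 at P30d overlapped that at E90 (79.0 to 81.8). By their values all 3 were least 5p at P30d and most 5p at P7y, although miR-379-3p and miR-411-3p share their reads and are not independent. Those reads were divided as 624.3 and 264.7 at E90, 14.5 and 24.5 at P30d, and 11.3 and 22.7 at P7y. The balances of miR-379 and miR-411 therefore depend on a division that differs between libraries. Not every member had this order. The 5p share of miR-299 was 15.7% (13.4 to 18.2) at E90 and 16.1% (8.02 to 27.7) at P30d. At P7y it was 0% (up to 8.22), on 43 reads. Both arms of a hairpin come from 1 library, so the 5p share does not depend on scaling.

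**Figure D4:**
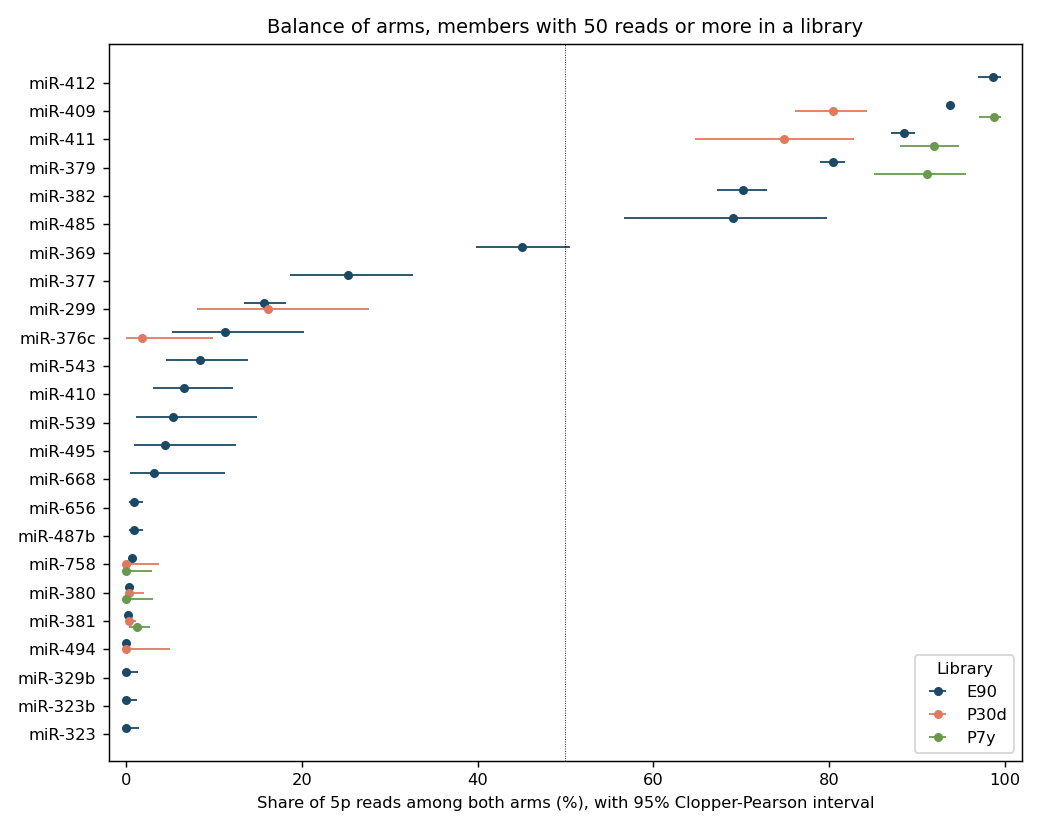
Share of 5p reads among both arms (x axis, %) of each member with at least 50 reads in a library, names joined, with 95% Clopper-Pearson intervals (lines) and libraries by colour. Most members sit near 0%, and miR-409 lies at 93.8%, 80.4% and 98.8%.

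Some members differed from the name's reference in sequence or in their 5′ end. Positions are counted from 1 at the 5′ end of the read, the named base comes first, and the read's base last. The main read of miR-379-5p carried A10G against the sheep sequence in all 3 libraries (2291 copies at E90). At E90, 0 of its 2567 reads counted as free of mismatch. miR-381-3p carried G10A against cattle, miR-409-3p T13G against dog and miR-412-5p C12T. Yet 2942 of 3234, 1096 of 1236 and 370 of 378 reads of these arms at E90 counted as free of mismatch. A substitution against the named sequence was thus not always counted as a mismatch. None of these substitutions lies in the seed. The members as a whole had 81.6%, 87.2% and 81.1% of reads without a mismatch, against 81.4%, 86.1% and 78.3% over all named miRNAs.

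In 12 of the 58 arms the main read had another seed than the named sequence. Several of these rest on few reads: miR-380-5p, miR-410-5p, miR-412-3p, miR-487b-5p and miR-495-5p had 9 or fewer at E90, and miR-329-3p had 0. For miR-323-3p the seed differed from the named one at E90 but not at P30d. The main read of miR-382-5p and that of miR-409-3p begin 1 base before the named start, which moves the seed. For miR-411-5p the main read began at different bases in different libraries.
miR-411-5p main read at E90: aTAGTAGAccgtatagcgtacg
miR-411-5p main read at P30d and P7y: tAGTAGACcgtatagcgtacg
The first had 460 copies at E90 and the second 28 at P30d and 94 at P7y. Each is the most frequent of several reads of the arm, and the shares of the other starts were not measured.

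The reads listed as miR-300-3p resembled miR-381-3p and were placed over its hairpin.
miR-300-3p: tATGCAAGgacaagctctct
Over the 20 bases that can be compared, this read differed from the main read of miR-381-3p at a single position, A4G counted on miR-381-3p, which lies in the seed. It had 35, 0 and 20 reads from E90 to P7y, and none of them was free of mismatch. As a share of the reads of both names, that is 1.07% at E90 (0.747 to 1.49), 0% at P30d (up to 0.604) and 4.59% at P7y (2.82 to 7.00). Whether these reads come from a hairpin of their own or from that of miR-381 was not tested.

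The tables place 22 of the 35 members on a single unplaced scaffold of Sscrofa10.2, all on the minus strand, between bases 6013 and 32132, a span of 26120 bases. Along the transcript they run from miR-376c to miR-410. The other 13 members, among them miR-379, miR-411, miR-299, miR-380, miR-758, miR-494 and miR-656, were listed from hairpins of other mammals without a place on that scaffold. Rows placed on the scaffold held 25.1%, 51.8% and 36.6% of the cluster's reads at E90, P30d and P7y. Exons, introns and the host transcript were not analysed here.

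Some neighbouring hairpins differed in their ratio to E90. At the far end lie miR-541, miR-409, miR-412, miR-369 and miR-410 side by side, with log2 ratios of P30d over E90 of -4.23, -4.21, -4.42, -2.33 and -2.04. miR-409, counted by the member rule, and miR-412 had like values. miR-541 had 48 reads at E90 and 1 at P30d, and its interval (-9.57 to -1.69) overlapped those of all the others. The intervals of miR-412 (-5.75 to -3.37) and miR-369 (-2.95 to -1.76) did not overlap. miR-381 and miR-487b, whose centres lie 4941 and 5500 bases from the start, were at -1.06 (-1.18 to -0.93) and -3.33 (-4.00 to -2.74). At the near end, miR-376c was at 0.78 (0.26 to 1.30) and miR-376d at -2.68 (-5.00 to -1.05). miR-668 and miR-485, at 15273 and 15494 bases, were at -3.60 (-6.68 to -1.69) and -1.15 (-2.17 to -0.25), which overlap. So some close neighbours differed beyond counting error and others did not.

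**Figure D5:**
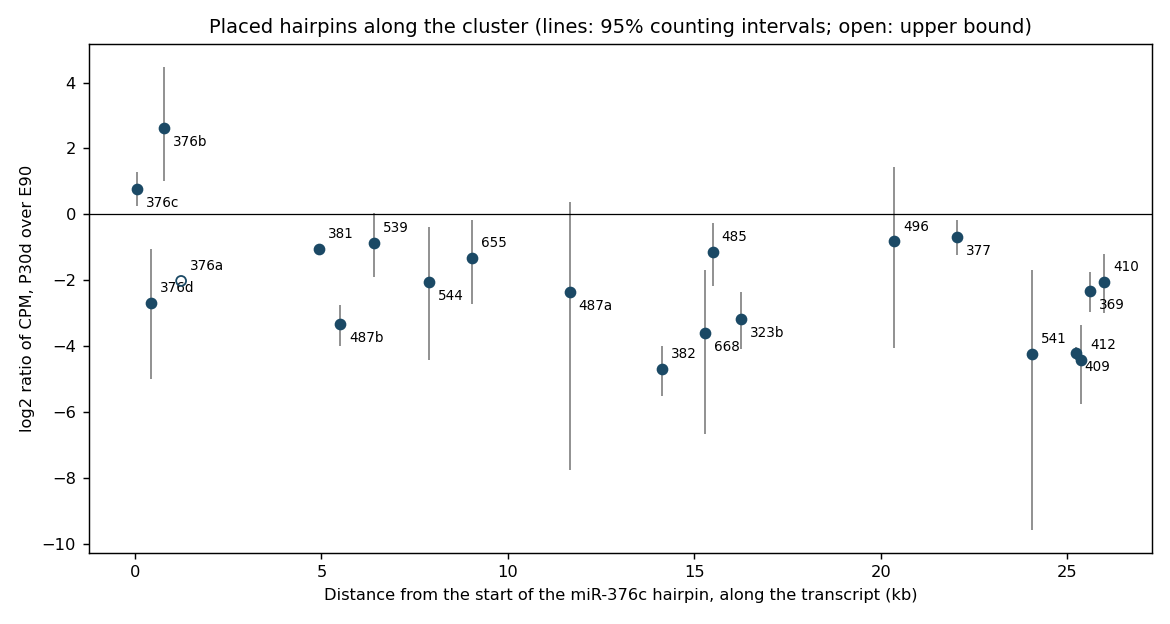
log2 ratio of CPM, P30d over E90, both arms summed (y axis), of 21 placed hairpins against distance from the start of the miR-376c hairpin in kilobases (x axis), with 95% counting intervals. Points are labelled by miRNA number; miR-376c and miR-376b lie above 0, and miR-382 is lowest at -4.70.

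The other miRNAs of the locus summed to less at each later stage too. The proximal list was miR-770, miR-493, miR-337, miR-665, miR-431, miR-433, miR-127, miR-432, miR-136 and miR-370, of which 8 were found. Its sum was 3199, 469 and 269 CPM, and its 3 arms with a mean of 10 CPM or more were all called lower at P30d and at P7y against E90, where 34.9% and 51.1% of all arms were. miR-127-3p, which faces the RTL1 gene on the opposite strand, held 85.3%, 82.2% and 86.4% of the proximal sum. miR-770-5p was an exception, with 8.11, 6.62 and 12.2 CPM. Distal reads were 50.1% (49.7 to 50.5) of distal and proximal reads together at E90. At P30d this share was 51.1% (49.4 to 52.8) and at P7y 33.7% (32.2 to 35.1). At P7y the distal share was therefore lower beyond counting error, in a measure that no scaling affects. With names joined it was 58.3%, 53.7% and 38.9%, and without miR-127 87.4%, 85.5% and 80.0%. The proximal arms were not alike. The log2 ratio of P7y over E90 was -3.55 for miR-127-3p, -4.10 for miR-136-3p and -6.93 for miR-370-3p, against -4.56 for the distal sum. The share therefore rests largely on miR-127-3p and does not describe each proximal arm.

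miR-1197, a distal miRNA not among the member names, had 106, 3 and 0 reads from E90 to P7y. Rows named with a member's number and another letter (miR-154b, miR-154c, miR-323c and miR-411c) summed to 94.7, 27.9 and 5.44 CPM. Of these, miR-154c-3p led with 433, 45 and 27 reads. These rows, which the cluster's sum leaves out, were together highest at E90 and lowest at P7y, while miR-411c-3p alone was highest at P30d, with 33, 38 and 0 reads.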

How the data were processed

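Small RNA of liver was read from 3 libraries, 1 per stage. The authors deposited 1 table per library; per the file headers, reads were mapped to known mammalian hairpins and hairpins placed on the genome, and per the submitters' processing notes the build was Sscrofa10.2. The mapper, miRBase release and trimming were not given in the sources used here. The read numbers of each arm were deposited in the form of expected counts, divided among hairpins that share a read; the deposited copies of each representative read are counts. Each table held 9406525, 3775157 and 9935073 reads.

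Member rows of the groups of known hairpins were summed per arm. The arm was taken from the position of the named miRNA in its named hairpin (9 of 172 rows differ from the listed side). Where it was not found there, the listed side was used. Sums were rounded to whole reads for exact intervals. CPM used all reads of these groups. Shares have Clopper-Pearson intervals and ratios exact conditional binomial ones. A call needed 2-fold and an interval off 0, with 0 set to 3 reads. With 1 library per stage no p-value is given. Named arms were those at 10 CPM or more on average, the 5 highest of each library, and those with 20 reads or more not lower in both later libraries; other arms in the text were chosen after their values were seen. Members and lists were chosen with earlier results of these data known. Calls and intervals were tested on simulated data. Scaling factors came from edgeR 4.0.16 (TMM) and DESeq2 1.42.0. R 4.3.3, SciPy 1.17.1, NumPy 2.4.6, pandas 2.3.3, matplotlib 3.10.9 and Python 3.11.15 were used. Alternatives were these scalings, other filters, a total without leading miRNAs, pig hairpins only, reads without a mismatch, the more abundant arm only, the representative read only, each member left out, another pseudocount for arms, and joined names.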

Additional observations from a re-analysis of the deposited data

How the results depend on the processing

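The sums at E90, P30d and P7y were 5254, 620 and 184 CPM from the representative read only, 6967, 1064 and 371 with the most abundant miRNAs left out of the total, 363, 184 and 42.4 from known pig hairpins only, 2191, 321 and 94.6 without the leading arm, and 4479, 544 and 171 with names joined. E90 was highest and P7y lowest in each. The log2 ratio of the sum fell short of 2-fold at -0.98 for P30d over E90 with pig hairpins only, and for P7y over P30d at -0.75 with TMM and -0.81 with DESeq2. The sum from pig hairpins only was close to that of miR-381 alone, which had 351, 169 and 42.4 CPM.

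Of arms lower and higher, no filter gave 32 and 3 for P30d against E90, 27 and 1 for P7y against P30d, and 44 and 2 for P7y against E90. A filter of 100 CPM left 3 arms, and 3 were lower in each pair. The representative read alone gave 1 higher in each comparison with E90. For P7y against P30d, TMM and DESeq2 each gave 7 lower and 1 higher. The sign turned for miR-409-5p (0.03 with TMM), miR-758-3p (0.21 without mismatches) and miR-329b-3p (0.63 from the representative read), all P7y over P30d, and for miR-411-5p, at -3.45 and -3.06 against E90 with names joined. The log2 balance of miR-379 turned to -9.98 at E90 and -4.14 at P7y without mismatches, because none of its 5p reads there counted as free of mismatch. Other causes were not tested. No paired analysis was possible because each stage has 1 library and the labels give no replicate numbers. For the same reason no library could be left out. Depth limits the zeros at P30d most, where 3 reads are 0.828 CPM.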
